A study of Rattus norvegicus with 6 samples.

Results

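Esrrg, Esrra, Ppargc1a, Ppargc1b, Ppara, Ppard and Tfam were taken as 1 set of 7 genes, out of 28282 gene symbols in the count tables, because their products act together in the control of mitochondrial number and fuel use. The set was defined by these names, with the statement that Esrrg is about 3-fold lower in severe acute pancreatitis (SAP), so the SAP difference of Esrrg is described here without a test. Nuclei came from the ileum of 6 wild type male Sprague-Dawley rats, 6 weeks old at the start and housed for 7 days before surgery, and each rat gave 1 single-nucleus RNA library. In 3 rats (SAP), the pancreatic duct received 3% sodium taurocholate (0.1 mL for each 100 g of body weight) and was held clamped for 5 min. The other 3 rats (CON) had a sham laparotomy without infusion. Both groups were anesthetized with pentobarbital, had water but no food after surgery, and were sampled at 24 h.

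The estrogen-related receptors ERRα (Esrra) and ERRγ (Esrrg) are orphan nuclear receptors that bind DNA without a known natural hormone and switch on genes of respiration and fat burning. They do so with the coactivators PGC-1α (Ppargc1a) and PGC-1β (Ppargc1b), which also serve the fatty acid sensors PPARα (Ppara) and PPARδ (Ppard). Tfam is the packaging and transcription factor of mitochondrial DNA, and its gene is a classical target of the respiratory factors NRF1 and GABP. In the small intestine PPARα is known for driving fatty acid oxidation and ketone synthesis during fasting, and PPARδ for its action in the crypt.

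Promoter sequences were available for 6 of the 7 genes (RefSeq, GRCr8), and 3 of these held a motif that was searched. Those of Ppargc1a and Tfam are printed, because the results below turn on these genes more than on Ppara, the third. The printed window is the 250 bases before the annotated start, 5′ to 3′ on the gene's strand, with the motif in capitals. In Ppargc1a (chr14:63634058-63634307, plus strand) the capitals mark a cyclic AMP response element, which is bound by CREB-type factors. In Tfam (chr20:17355123-17355372, plus strand) they mark a site of the GABPA type.
Ppargc1a: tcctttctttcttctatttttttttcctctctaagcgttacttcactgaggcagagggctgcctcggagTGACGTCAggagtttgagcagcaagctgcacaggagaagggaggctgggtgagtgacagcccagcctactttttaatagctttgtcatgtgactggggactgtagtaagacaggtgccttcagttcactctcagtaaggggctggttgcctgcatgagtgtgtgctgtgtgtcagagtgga
Tfam: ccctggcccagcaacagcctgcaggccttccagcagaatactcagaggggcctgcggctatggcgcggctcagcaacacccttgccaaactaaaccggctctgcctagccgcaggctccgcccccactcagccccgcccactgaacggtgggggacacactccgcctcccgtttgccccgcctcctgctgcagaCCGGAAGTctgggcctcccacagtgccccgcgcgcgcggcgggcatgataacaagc
The motifs were searched on both strands. The cyclic AMP response element TGACGTCA, starting 181 bases before the Ppargc1a start, was held by 1.59% of 33465 promoter windows of this length. The GABPA site CCGGAAGT, 56 bases before the Tfam start, was held by 3.10%. The palindromic NRF1 site was found 100 bases before the Ppara start and in 3.75% of windows. The ERR element TNAAGGTCA (1.04% of windows) and the PPAR direct repeat with a spacer of 1 base (0.0508%) were in none of the 9 member windows, of which 4 belong to annotated starts of Esrrg. The motifs do not overlap each other in these windows, and a match describes letters only.

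Of 90461 barcodes, 40970 met the study's quality limits (UMIs from 1200 up, genes from 500 up, mitochondrial share no higher than 5%), between 3189 and 9246 per library, with 5549260 to 28771508 UMIs per library. Barcodes under 1000 UMIs were listed for CON replicate 2 and SAP replicate 1 only, and the median mitochondrial share of a nucleus ran from 0.387% to 1.84% in SAP and from 0.125% to 0.700% in CON. Of 34979 barcode names, 5398 were found in more than 1 library, and the names are running labels rather than sequences. Clusters of nuclei were named after marker lists and are written with the ending -like. There were 17 named classes and 3 unnamed clusters, 15 of which had at least 10 nuclei in every library. No plasma-like cluster was found. A level is given in CPM, the gene's UMIs scaled to a common total over the nuclei summed in 1 library.

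Over all nuclei Esrrg stood at 142.9, 169.7 and 181.6 CPM (scaled by TMM, which corrects for composition) in the CON libraries and at 53.8, 37.0 and 57.7 CPM in the SAP libraries. The lowest CON library lay above the highest SAP library, a pattern that chose the gene, beside 9.06% of all 19187 tested genes that were lower without overlap. The difference was −1.74 on the log2 scale. Over epithelial nuclei it was −1.81, with means of 165 ± 28.9 CPM in CON and 47.2 ± 14.0 CPM in SAP (SD, n = 3 rats each). The values rest on 11831 UMIs in all and at least 253 in a library.

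**Figure D1:**
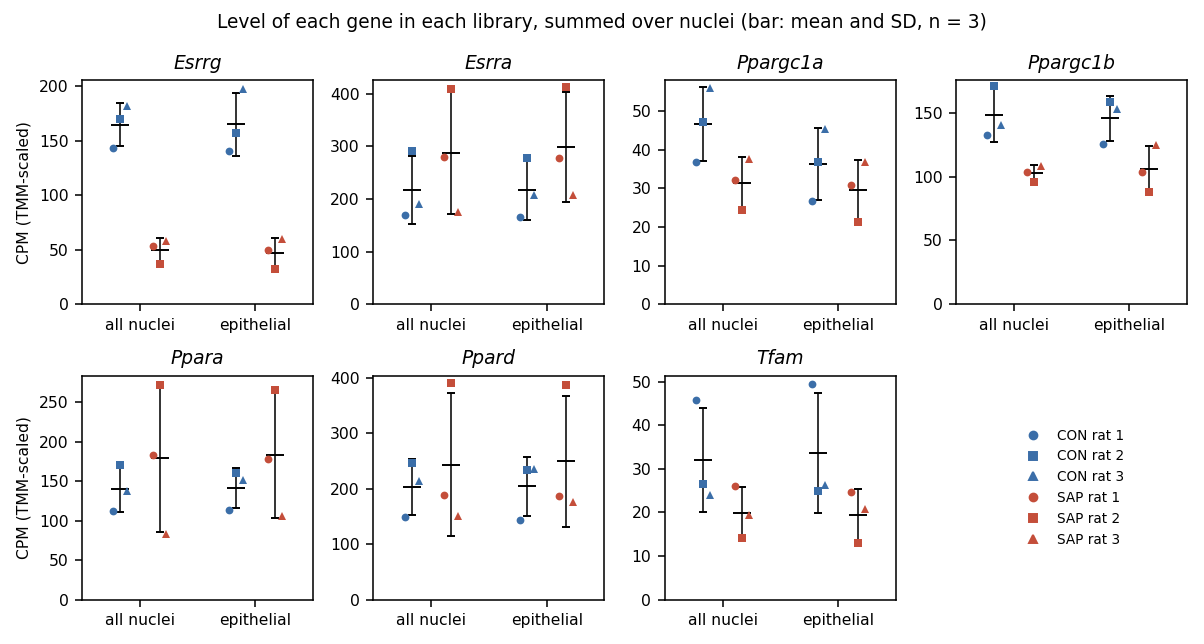
Level of each of the 7 genes in each library (CPM, TMM-scaled) over all nuclei and over epithelial nuclei; points are rats, the bar is the mean with the SD of 3. The Esrrg values of the 2 groups do not overlap in either sum, those of Ppargc1b do not overlap in either, and those of Esrra, Ppara and Ppard overlap in both.

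On the scale of all UMIs of a class, stem-like nuclei, which carry Lgr5 and Olfm4, led the 15 classes in CON with 339 ± 141 CPM (SD, n = 3). Enteroendocrine-like nuclei (259 ± 119 CPM), stem/TA-like nuclei (245 ± 99.1 CPM) and the unnamed cluster 13 (220 ± 56.6 CPM) followed. Both crypt classes carry proliferation markers, 8 of which summed to 1171 ± 92.6 CPM in stem-like and 945 ± 81.9 CPM in stem/TA-like nuclei of CON. Enterocyte-like nuclei, the absorptive cells of the villus, stood lowest with 80.7 ± 38.0 CPM. Stem-like nuclei were above enterocyte-like nuclei in 6 of 6 libraries, by 2.26 to 6.51 times in CON and 5.05 to 6.46 times in SAP. Stem/TA-like nuclei were also above them in 6 of 6 libraries, by 1.67 to 4.66 times in CON and 2.27 to 6.12 times in SAP. The order was not the same in SAP. Endothelial-like nuclei had the highest mean there (190.9, 56.4 and 123.7 CPM), above stem-like nuclei with 66.2, 101.9 and 189.9 CPM. These 2 means lay close together, at 124 ± 67.2 and 119 ± 63.7 CPM (SD, n = 3). The endothelial-like value of SAP replicate 1 rests on 13 nuclei and 4 Esrrg UMIs.

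By the ranges of the CON values, neighbours in that order were not separated, with 1 exception. Compared within each library, stem-like nuclei were above enteroendocrine-like nuclei in all 3 CON libraries. Of the 14 steps from one class to the next, only that from macrophage-like to enterocyte-like nuclei had all 3 CON values of the higher class above all 3 of the lower. From the tuft-like class (185 ± 91.8 CPM) down to the macrophage-like class (136 ± 15.8 CPM), 10 classes spanned a narrow range of means that included T-like (160 ± 24.4 CPM), B-like (147 ± 31.9 CPM) and SMC-like nuclei (142 ± 17.6 CPM). Among 2 clusters of the Paneth-like class, cluster 7, led by Gfra4 and Habp2, held 186.5, 201.4 and 276.4 CPM in CON, and cluster 5, led by defensin genes, held 37.3, 148.9 and 130.6 CPM.

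2 small unnamed clusters with fewer than 10 nuclei in some library had the highest single values. Cluster 18 (164 nuclei, led by Sorcs1, Kcnmb2 and Ano1) held 260.1, 1048.3 and 720.5 CPM in CON and 1053, 29.3 and 127.6 CPM in SAP. Cluster 21 (122 nuclei, led by Xkr4, Cr2 and Cxcl13) held 366.9, 572.0 and 807.4 CPM in CON, no Esrrg UMI in 2 SAP libraries and 648.4 CPM in the third. They rest on 135 and 157 Esrrg UMIs over 6 libraries, and the SAP values of cluster 18 ran from 29.3 to 1053 CPM.

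**Figure D2:**
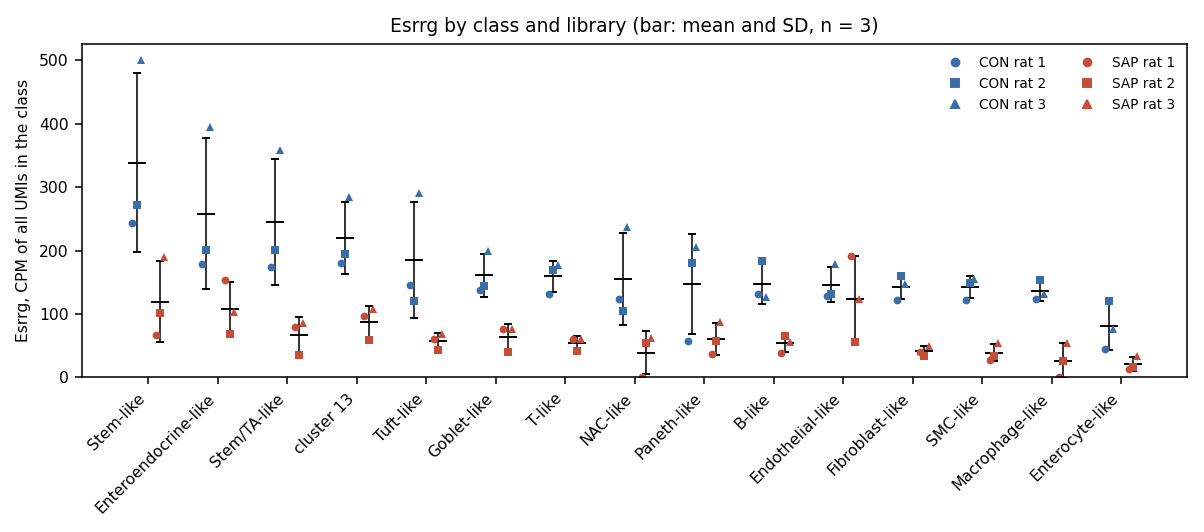
Esrrg in the 15 classes with at least 10 nuclei in every library, in CPM of all UMIs of the class, ordered by the CON mean; points are rats, the bar is the mean with the SD of 3. CON values lie above SAP values in most classes, and the CON mean falls from 339 CPM in stem-like to 80.7 CPM in enterocyte-like nuclei.

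Free RNA of the suspension enters all droplets, and the level of Muc2, the secreted mucin of goblet cells, was taken as an index of it. Muc2 stood at 1169, 1113 and 1031 CPM in T-like nuclei of CON, beside 1093, 1333 and 1022 CPM over all nuclei, and at 861, 418 and 800 CPM in T-like nuclei of SAP. T cells are not a source of this mucin. An Esrrg level in a class was therefore also set against the Muc2 UMIs of the same nuclei, a comparison chosen after these values were seen. Goblet-like nuclei were left out of it. The Muc2 values over all nuclei include that class, and the other nuclei, pooled over all libraries, held 609 CPM. The 8 goblet cell markers summed to 5815 ± 1219 CPM in T-like nuclei of CON. They summed to 3267 ± 695 CPM in stem/TA-like and 3101 ± 877 CPM in stem-like nuclei of CON. The index was thus not even over classes, and a ratio to Muc2 is higher where Muc2 is lower.

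T-like nuclei held 0.113, 0.152 and 0.173 Esrrg UMIs per Muc2 UMI in CON and 0.0700, 0.101 and 0.0763 in SAP, and all nuclei together 0.102, 0.131 and 0.218 in CON libraries against 0.0522, 0.0862 and 0.0764 in SAP libraries. Neither overlapped between groups, in counts that chose the gene. In fibroblast-like nuclei the ratio was 0.927 to 1.07 times that of T-like nuclei of the same CON library, and in macrophage-like nuclei 0.818 to 1.27 times. SMC-like nuclei, by contrast, stood above the T-like ratio in every CON library. The T-like ratio is called the T-like background below, and whether Esrrg at this ratio is free RNA was not tested. In SAP the ranges of fibroblast-like and macrophage-like nuclei were 0.533 to 0.856 and 0.0 to 1.00 times. Stem-like nuclei held 4.77 to 7.40 times the ratio of T-like nuclei in CON and 2.61 to 5.71 times in SAP. Stem/TA-like nuclei held 3.20 to 4.19 times and 1.64 to 3.01 times. Enteroendocrine-like nuclei held 1.97 to 4.33 times and 1.59 to 6.35 times, and each of these classes was above T-like nuclei in 6 of 6 libraries on this scale. On the scale of all UMIs the margins were smaller. Stem-like nuclei stood at 1.60 to 2.81 times the level of T-like nuclei in CON and 1.10 to 3.11 times in SAP, and stem/TA-like nuclei at 1.19 to 2.01 times and 0.848 to 1.41 times, above them in 5 of 6 libraries.

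**Figure D3:**
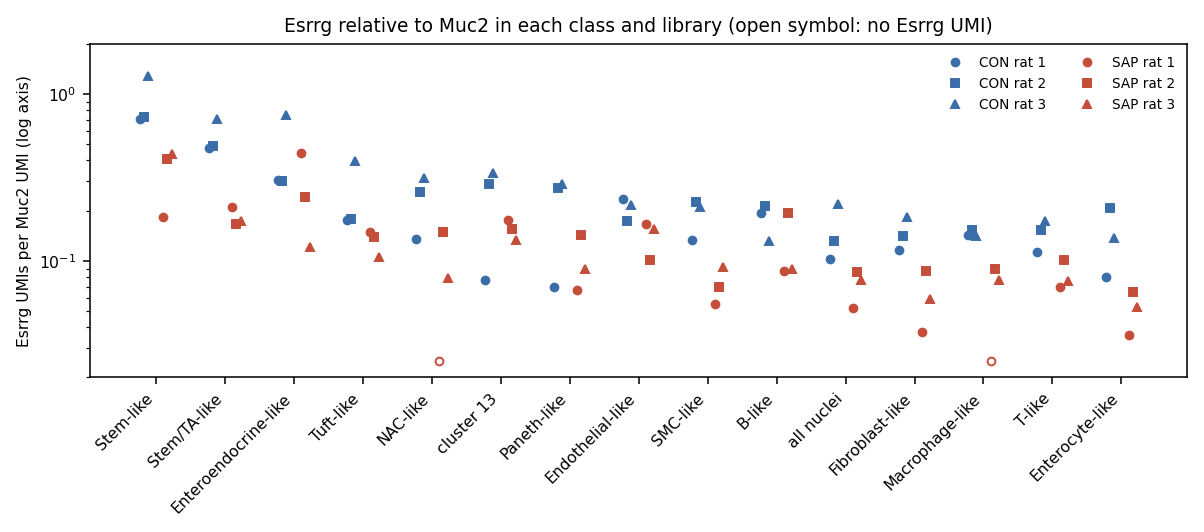
Esrrg UMIs per Muc2 UMI in each class and library, on a log axis, ordered by the CON mean; open symbols are libraries without an Esrrg UMI in the class. Stem-like, stem/TA-like and enteroendocrine-like nuclei lie above T-like nuclei in every library, and fibroblast-like and macrophage-like nuclei of CON lie beside them.

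Esrrg was lower in SAP without overlap in 14 of the 15 classes on the TMM scale (beside 7.82% of all pairs of a gene and a class), and in 13 of them on the scale of all UMIs, where the Paneth-like class overlapped too. The exception on both scales was the endothelial-like class, where SAP replicate 1 had 13 nuclei and 4 Esrrg UMIs. Among the 14, NAC-like nuclei are counted although Esrrg did not pass the filter on low counts there, and the 7.82% covers pairs that passed it. In the library with the fewest, Esrrg had 0 UMIs in NAC-like and in macrophage-like nuclei and 2 in B-like nuclei. The log2 difference was −1.42 in stem-like, −1.81 in stem/TA-like, −1.86 in enterocyte-like and −1.28 in goblet-like nuclei. It was −1.52 in T-like nuclei, the reference, and −1.66 in fibroblast-like nuclei, which stood at the reference ratio in CON. The classes of 1 library share its free RNA, so their differences are not separate observations.

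After subtraction of the Esrrg that T-like nuclei hold at the same Muc2 content, stem/TA-like nuclei kept 133, 139 and 271 CPM in CON and 53.6, 14.0 and 48.5 CPM in SAP. Stem-like nuclei kept 205, 215 and 433 CPM in CON and 40.9, 76.8 and 157 CPM in SAP. The groups did not overlap in either class. These values come from the Esrrg counts that chose the gene, and no share over all genes was computed on this scale. In SAP the T-like ratio was above that of fibroblast-like nuclei in every library, so it takes off more there. With fibroblast-like nuclei as the reference, stem/TA-like nuclei kept 132, 143 and 266 CPM in CON libraries and 66.0, 17.1 and 57.0 CPM in SAP libraries, again without overlap. The fibroblast-like reference rests on 299 Esrrg UMIs over all libraries and on 5 in the library with the fewest. Enterocyte-like nuclei were at or below the T-like background in 5 of 6 libraries, from −19.3 to 31.8 CPM in CON and from −14.6 to −8.87 CPM in SAP. The T-like reference of SAP replicate 1 rests on 14 Esrrg UMIs and 200 Muc2 UMIs.

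Crypt markers were read in the same nuclei. In stem-like nuclei the 7 stem cell markers together stood at 4038 ± 888 CPM in CON and 4233 ± 728 CPM in SAP (SD, n = 3), so the groups overlapped. Esrrg per 1000 UMIs of these markers came to 50.0, 87.8 and 120 in CON libraries and 14.7, 29.9 and 39.6 in SAP. The groups did not overlap here, again in counts that chose the gene. In stem/TA-like nuclei the 8 proliferation markers stood at 970, 1011 and 853 CPM in CON and 449, 116 and 829 CPM in SAP, without overlap. They were also lower without overlap in stem-like nuclei, at 1171 ± 92.6 CPM in CON and 705 ± 202 CPM in SAP. The difference was not particular to the crypt classes, since these markers were also lower without overlap in T-like (654 ± 160 and 302 ± 154 CPM), goblet-like, SMC-like and enterocyte-like nuclei (286 ± 111 and 121 ± 53.8 CPM). In stem/TA-like nuclei Esrrg per 1000 UMIs of the proliferation markers amounted to 180, 199 and 420 in the CON libraries and to 179, 308 and 104 in the SAP libraries, where the groups overlapped. They also overlapped per 1000 UMIs of the stem cell markers (83.8, 151 and 259 in CON, 49.0, 104 and 59.6 in SAP). The part of the proliferation markers in the Esrrg difference of these classes was not tested. In enterocyte-like nuclei the enterocyte markers stood at 16120, 3852 and 8612 CPM in CON and at 7481, 7864 and 7552 CPM in SAP. Esrrg per 1000 UMIs of the enterocyte markers came to 2.78, 31.3 and 8.93 in CON and 1.75, 2.01 and 4.43 in SAP, where the groups overlapped.

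The share of each class in the UMIs of a library also differed between libraries, without a test. Stem/TA-like nuclei gave 22.9% of UMIs in CON and 14.6% in SAP on average, and enterocyte-like nuclei 19.2% and 31.8%. Counted as nuclei, enterocyte-like nuclei made up 17.4%, 21.6% and 20.4% of the CON libraries and 35.3%, 46.9% and 17.7% of the SAP libraries, so the groups overlapped. The Esrrg difference over all nuclei was split into a part from these shares and a part from the level inside classes. With group means, the level inside classes, free RNA included, made up 90.7% of the difference, and over the 9 pairs of 1 CON and 1 SAP library this part ran from 88.5% to 114%, with a median of 90.2%. Stem/TA-like nuclei contributed most, −33.3 CPM through their level and −12.8 CPM through their share. The level part also holds −15.3 CPM from enterocyte-like nuclei and −7.68 CPM from T-like nuclei, the class that defines the T-like background. Free RNA comes from all cells of the suspension, and its part in the Esrrg of a class was not measured. The split therefore does not separate the makeup of a library from the level inside its cells. With the class shares held equal in every library the log2 ratio of SAP to CON was −1.59.

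None of the other 6 genes was called over all nuclei or over epithelial nuclei. A call needed an adjusted p under 0.05 (edgeR quasi-likelihood test, Benjamini-Hochberg over all genes tested) and a log2 change of 0.5 or more in either direction. That test called 0 of 19187 genes over all nuclei (0%), with 1618 at an unadjusted p under 0.05 (8.43%), and 0 of 16844 over epithelial nuclei (0%), with 1906 (11.3%). DESeq2 called 193 of 15547 (1.24%) and 270 of 15070 genes (1.79%), none of them one of the 6. Across the 15 classes edgeR called none of the 6, among 12 calls in 130796 pairs of a gene and a class (0.00917%), of which 10177 had an unadjusted p under 0.05 (7.78%). DESeq2 called 1 of them, Ppargc1a in SMC-like nuclei, among 660 calls in 175539 pairs (0.376%). With 3 rats a group, p-values set a group difference against the spread between rats, estimated for each gene with information from other genes.

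Over all nuclei Ppargc1a stood at 36.9, 47.3 and 56.0 CPM in CON and at 32.3, 24.4 and 37.7 CPM in SAP (TMM), and the groups overlapped. The log2 fold change was −0.57 (SE 0.28, edgeR adjusted p = 0.639), and over epithelial nuclei −0.29 (SE 0.31, adjusted p = 0.741).

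SMC-like nuclei carry Myh11, Actg2 and Des of smooth muscle. Ppargc1a, the inducible coactivator of the pair, stood in them at 249.2, 207.1 and 223.3 CPM in CON and at 53.8, 45.1 and 78.1 CPM in SAP (TMM). All 3 SAP values were far below the lowest CON value, beside 10.5% of 9071 genes lower without overlap in this class. The log2 fold change was −1.88 (SE 0.30) with an adjusted p of 0.0525 in edgeR, which called 1 gene of 9071 (0.0110%). At an unadjusted p under 0.05 there were 1040 genes (11.5%). In DESeq2, which called 160 of 9830 genes (1.63%), the adjusted p was 0.00101, and over all settings tried the adjusted p ran from 1.78e-05 to 0.376. The gene had 540 UMIs in this class over all libraries and 8 in the library with the fewest.

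The nuclei of the class differed between groups in more than this gene. The 6 smooth muscle markers together stood at 13485, 8887 and 7331 CPM in CON and at 5296, 1722 and 4745 CPM in SAP, without overlap. Ppargc1a per 1000 UMIs of these markers came to 16.9, 22.9 and 29.2 in CON libraries and 8.56, 24.6 and 16.5 in SAP, and on this scale the groups overlapped. Muc2 in the class reached 921, 659 and 739 CPM in CON libraries and 515, 483 and 584 CPM in SAP. The 5 neutrophil markers, of which 4 had UMIs in the class, summed to 0.0 to 14.8 CPM in CON and 96.0 to 1223 CPM in SAP. The 5 plasma cell markers were also higher without overlap (102 ± 21.5 CPM in CON, 211 ± 66.4 CPM in SAP), and the stem cell markers (1010 ± 129 and 610 ± 147 CPM) and proliferation markers (445 ± 143 and 191 ± 86.1 CPM) were lower without overlap. The part of these shifts in the Ppargc1a difference was not tested. After subtraction of the T-like background 203, 176 and 171 CPM of Ppargc1a were left in CON and 42.7, 10.7 and 38.9 CPM in SAP, without overlap, where the T-like reference of SAP replicate 1 rests on 1 UMI.

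Goblet-like nuclei had the highest mean of Ppargc1a among the epithelial classes. It stood there at 92.5, 66.0 and 120.3 CPM in CON and at 112.5, 108.4 and 122.6 CPM in SAP, with a log2 fold change of 0.30 (SE 0.25, edgeR adjusted p = 0.773). SMC-like nuclei held 1.70 to 2.95 times the level of goblet-like nuclei in CON and 0.423 to 0.600 times that level in SAP, on the scale of all UMIs of a class. Goblet-like nuclei were thus the lower class in every CON library and the higher in every SAP library. This contrast was chosen after its values were seen, and 3 rats against 3 cannot give an exact permutation p under 0.10.

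NAC-like nuclei, which carry the neuronal markers Elavl4, Prph, Snap25 and Syt1, had the second highest CON mean of Ppargc1a (132 ± 63.4 CPM of all UMIs, n = 3) and 58.3 CPM in SAP, but the gene did not pass the filter on low counts there. T-like nuclei held 46.5 ± 15.1 CPM in CON. Stem/TA-like (28.1 ± 11.7 CPM) and enterocyte-like nuclei (31.3 ± 19.7 CPM) were below them.

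**Figure D4:**
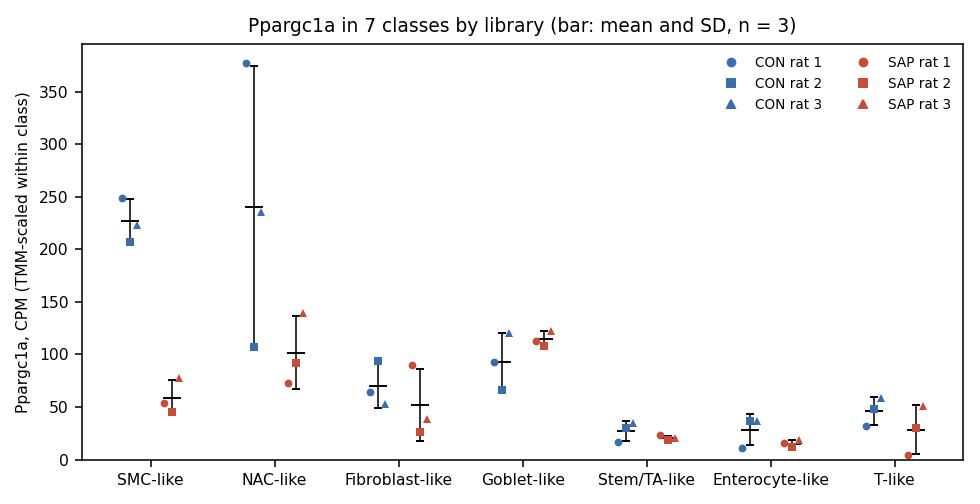
Ppargc1a in 7 classes by library (CPM, TMM-scaled within each class); points are rats, the bar is the mean with the SD of 3. In SMC-like nuclei the SAP values (45.1 to 78.1 CPM) lie below the CON values (207.1 to 249.2 CPM), and in goblet-like nuclei the groups overlap.

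A test of the difference between compartments gave Ppargc1a a SAP effect 0.75 (SE 0.21) higher on the log2 scale in epithelial than in other nuclei. The unadjusted p was 0.0034 and the adjusted p 0.770 (edgeR), so the difference was not called. The same test called 1 of 18798 genes (0.00532%), with 1183 at an unadjusted p under 0.05 (6.29%). With every gene of at least 1 count kept, it called Ppargc1a among 318 of 28135 genes (1.13%), with 1940 at an unadjusted p under 0.05 (6.90%). Tfam gave −0.54 (SE 0.24, adjusted p = 0.792), and the other 4 genes lay between 0.06 and 0.10.

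Ppargc1b, the constitutive partner of Ppargc1a, was lower than every CON library in every SAP library over both sums, but only on the TMM scale. On the scale of all UMIs the groups overlapped over both sums. There CON replicate 1 (TMM factor 0.781 over all nuclei) lay below SAP replicate 3 (1.30). Over all nuclei it stood at 132.5, 171.3 and 140.1 CPM in CON and at 104.0, 95.5 and 108.4 CPM in SAP (TMM). The groups did not overlap, beside 9.06% of all genes lower without overlap, with a log2 fold change of −0.53 (SE 0.21, edgeR adjusted p = 0.568). Over epithelial nuclei, where 12.4% of all genes were lower without overlap, it was −0.46 (SE 0.21, edgeR adjusted p = 0.459), where the lowest CON library (125.8 CPM) lay just above the highest SAP library (125.0 CPM). SMC-like nuclei had −0.84 (SE 0.30, adjusted p = 0.302) and enterocyte-like nuclei −0.61 (SE 0.24, adjusted p = 0.474), without overlap in either on the TMM scale. On the scale of all UMIs the groups overlapped in enterocyte-like nuclei. Per 1000 UMIs of the smooth muscle markers, SMC-like nuclei held 8.21, 22.1 and 23.3 UMIs of Ppargc1b in CON and 10.7, 55.7 and 21.0 in SAP, where the groups overlapped and the SAP mean was the higher. The gene passed the filter in 14 classes and was lower without overlap in 7 of them on the TMM scale. The shares of all genes that were so in these classes were 4.86% (B-like), 7.73% (endothelial-like), 9.12% (enterocyte-like), 6.22% (fibroblast-like), 10.5% (SMC-like), 7.46% (stem-like) and 6.76% (T-like). In the library with the fewest, Ppargc1b had 0 UMIs in endothelial-like and 2 in B-like nuclei. The classes of 1 library share its free RNA, so their differences are not separate observations for this gene either. The highest CON mean of Ppargc1b was in stem/TA-like nuclei, 208 ± 52.7 CPM of all UMIs, 1.62 to 3.89 times that of Paneth-like nuclei.

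Tfam was a gene of few UMIs, 2734 in all. Over all nuclei it stood at 45.8, 26.4 and 24.0 CPM in CON and at 26.1, 14.2 and 19.4 CPM in SAP, and the groups overlapped. CON replicate 1 was the high library, and the log2 fold change of −0.70 (SE 0.36, edgeR adjusted p = 0.661) was −0.33 without it. Over epithelial nuclei Tfam stood at 49.5, 24.9 and 26.4 CPM in CON and at 24.6, 12.97 and 20.7 CPM in SAP, without overlap by a small margin. Of all genes, 12.4% were lower without overlap in this sum. There the log2 fold change was −0.80 (SE 0.37, adjusted p = 0.470), and −0.39 without CON replicate 1. In stem/TA-like nuclei Tfam stood at 60.5, 37.1 and 38.8 CPM in CON and at 25.1, 13.4 and 31.3 CPM in SAP. There the groups did not overlap, beside 10.2% of genes lower without overlap in this class, and the log2 fold change was −0.96 (SE 0.37, adjusted p = 0.514). Above the T-like background these nuclei held 44.9, 26.3 and 29.8 CPM in CON and 10.0, 4.47 and 18.6 CPM in SAP. The T-like reference rests on 7 Tfam UMIs in SAP replicate 1 and on 18 each in SAP replicate 2 and CON replicate 2. Tfam per 1000 UMIs of the proliferation markers came to 57.4, 38.2 and 49.1 in CON libraries and 52.0, 101 and 42.3 in SAP, and on this scale the groups overlapped.

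By class Tfam was highest in the crypt classes in CON. Stem-like nuclei held 53.2 ± 9.5 CPM of all UMIs in CON and stem/TA-like nuclei 45.4 ± 9.1 CPM, and enterocyte-like nuclei held 15.9 ± 1.9 CPM (SD, n = 3). Stem-like nuclei were above enterocyte-like nuclei in 6 of 6 libraries, by 2.82 to 4.12 times in CON and 1.89 to 5.63 times in SAP. Esrrg and Tfam thus shared their lowest place among the epithelial classes.

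The receptors Esrra, Ppara and Ppard had mean levels that were higher in SAP, but their groups overlapped over all nuclei and over epithelial nuclei. Esrra stood at 169.6, 290.6 and 190.9 CPM in CON and at 280.8, 408.6 and 175.4 CPM in SAP over all nuclei, with a log2 fold change of 0.41 (SE 0.36, edgeR adjusted p = 0.824). Ppara stood at 112.7, 170.7 and 137.2 CPM in CON and at 183.0, 272.0 and 83.6 CPM in SAP, with 0.36 (SE 0.41, adjusted p = 0.871). Ppard gave 148.6, 246.8 and 214.1 CPM in CON and 188.1, 389.7 and 150.0 CPM in SAP, with 0.26 (SE 0.39, adjusted p = 0.901). SAP replicate 2 was the highest library for all 3 genes and SAP replicate 3 was below the CON mean for each. With SAP replicate 2 left out, Esrra had a log2 fold change of 0.071, Ppara of −0.080 and Ppard of −0.26.

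No neighbouring classes in the order of any of the 3 receptors were separated in CON by their ranges. Within libraries, Ppara in stem-like nuclei was above the next class, fibroblast-like nuclei, in all 3 CON libraries. The CON means of Esrra ran from 121 CPM in NAC-like to 279 CPM in enterocyte-like nuclei, those of Ppara from 89.7 CPM in Paneth-like to 201 CPM in stem/TA-like nuclei, and those of Ppard from 113 CPM in NAC-like to 269 CPM in enterocyte-like nuclei. Their levels in T-like nuclei of CON were 233, 151 and 229 CPM. Esrra was higher in SAP without overlap in cluster 13 (0.69, SE 0.27, edgeR adjusted p = 0.573), where 6.39% of 10844 genes were, and Ppara lower in stem-like nuclei (−0.35, SE 0.23, adjusted p = 0.776), where 7.46% of 9065 genes were lower without overlap.

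The other genes of these pathways were read in 8 lists over epithelial nuclei, with 16844 genes tested and a median log2 fold change over all of them of −0.0034. The lists were chosen with earlier results of these data known. edgeR called no gene of any list there or over all nuclei. In DESeq2 6 list genes were called over epithelial nuclei (Decr1, Eci1, Acaa2, Plin2, Creb3l3 and Vnn1) and 4 over all nuclei (Plin2, Angptl4, Vnn1 and Creb3l3), of which Vnn1 and Angptl4 are named for this result. DESeq2 called 1.79% of all genes over epithelial nuclei and 1.24% over all nuclei. The list of PPAR targets had the highest median, 1.21, with 12 of its 13 tested genes higher in SAP and 8 of them at an unadjusted p under 0.05, beside 5.38% of all genes. Only 13 of its 20 genes passed the filter on low counts, which can keep a gene through SAP alone. The median and both counts can be raised by such genes. Fatty acid oxidation followed, with a median of 0.44, 22 of 24 genes higher and 10 at an unadjusted p under 0.05. Over all nuclei the medians were 0.95 (14 of 15 genes higher) and 0.44 (23 of 24 higher), beside 0.02 for all genes. Enterocyte-like nuclei took a larger mean share of the SAP libraries, and inside that class the medians were 0.92 (10 of 12 PPAR targets higher, 6 of them at an unadjusted p under 0.05) and 0.47 (23 of 24 oxidation genes higher, 8 of them so), beside 4.90% of all genes. Neither edgeR (0 of 13151 genes, 0%) nor DESeq2 (94 of 11708, 0.803%) called a gene of either list there. The 6 fat cell markers together stood at 28.7, 53.8 and 103 CPM in CON and 112, 172 and 153 CPM in SAP in enterocyte-like nuclei, and were higher without overlap in stem/TA-like nuclei too. Their part in the list values was not tested.

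Among PPAR targets, Plin2, a coat protein of lipid droplets, stood at 17.5, 16.7 and 26.7 CPM in CON and at 39.3, 59.1 and 42.3 CPM in SAP over epithelial nuclei (TMM). Its log2 fold change was 1.21 (SE 0.29, adjusted p = 0.401 in edgeR and 0.0324 in DESeq2), and the groups did not overlap, beside 6.85% of all genes higher without overlap. Creb3l3, a liver and gut transcription factor of fasting, stood at 18.0, 3.5 and 73.5 CPM in CON and at 293.6, 213.5 and 132.2 CPM in SAP, with 2.74 (SE 0.92, edgeR adjusted p = 0.407, DESeq2 0.0324) and 4.28 without CON replicate 3. Pex11a, which divides peroxisomes, gave 0.92 (SE 0.26) and Acot2, a mitochondrial thioesterase, 0.98 (SE 0.31).

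Among the oxidation genes, Cpt1a, the gate of fatty acid entry into mitochondria, stood at 149.5, 176.4 and 157.8 CPM in CON and at 228.1, 271.5 and 297.9 CPM in SAP. All 3 SAP values were above the CON values, beside 6.85% of all genes, with a log2 fold change of 0.72 (SE 0.20, edgeR adjusted p = 0.401, DESeq2 0.123). Decr1 gave 1.25 (SE 0.28), Acaa2 1.17 (SE 0.29) and Eci1 1.11 (SE 0.28), all enzymes of the β-oxidation spiral or its side reactions. Their adjusted p was 0.401 in edgeR and 0.0148, 0.0467 and 0.0360 in DESeq2. Acadl, a long-chain acyl-CoA dehydrogenase, gave 0.94 (SE 0.23). In SMC-like nuclei the oxidation list had 16 of 21 tested genes higher (median 0.34). Of the 20 PPAR targets only 8 were tested there and 6 were higher (median 1.39), beside −0.0085 for all genes tested. The filter on low counts keeps a gene with enough UMIs in 1 group alone. The PPAR target medians and the counts of higher genes, here and above, can therefore be raised by genes that passed through SAP. The enterocyte markers in SMC-like nuclei summed to 1909 ± 896 CPM in CON and 2362 ± 1038 CPM in SAP, and their part was not tested.

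The list of mitochondrial DNA maintenance and transcription had a negative median, with 15 of 20 genes lower, a median of −0.28, 6 genes lower without overlap and 1 higher without overlap, beside 12.4% and 6.85% of all genes. Mterf3, a repressor of mitochondrial transcription, gave −0.76 (SE 0.23, edgeR adjusted p = 0.401) and Nrf1 −0.48 (SE 0.21, adjusted p = 0.451), both without overlap. Gabpa, whose site stands in the Tfam window printed above, had 17.9 ± 2.2 CPM in CON and 13.8 ± 0.75 CPM in SAP (SD, n = 3), with −0.38 (SE 0.25, adjusted p = 0.579). Tfb2m gave −0.49 (SE 0.30) and Mgme1 −0.66 (SE 0.40), and Polrmt, the mitochondrial RNA polymerase, was at 4.2 ± 1.2 and 4.3 ± 2.0 CPM.

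**Figure D5:**
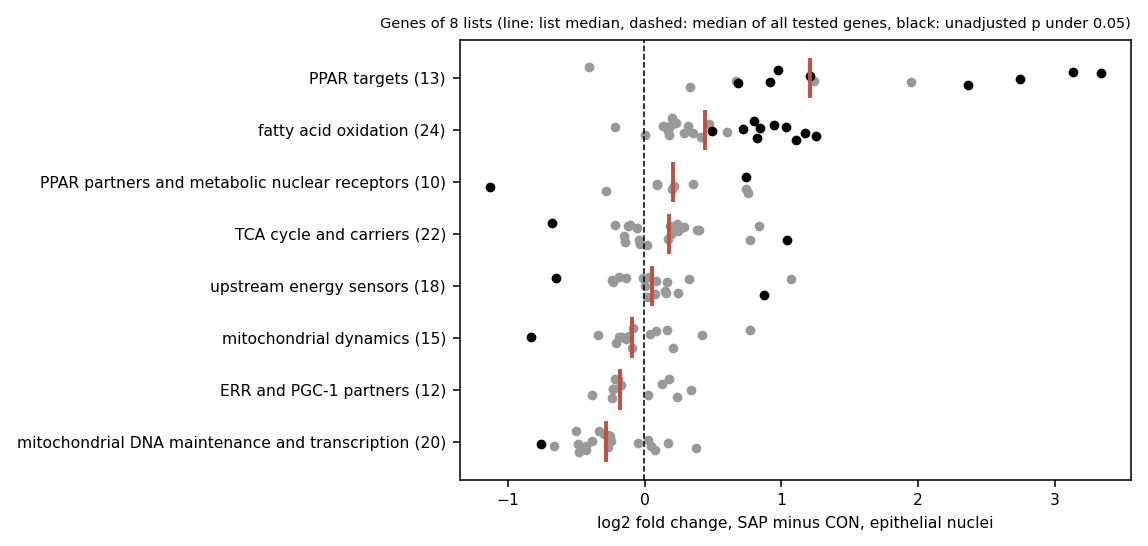
Log2 fold change (SAP minus CON) over epithelial nuclei of each tested gene of 8 lists, with the number tested in brackets; red lines are list medians, the dashed line is the median of all tested genes, and black points have an unadjusted p under 0.05 in edgeR. PPAR targets (median 1.21) and fatty acid oxidation (0.44) lie to the right and mitochondrial DNA maintenance (−0.28) to the left.

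The other 5 lists had medians from −0.18 to 0.21. Of the nuclear receptors, Rxrb gave −1.13 (SE 0.31, edgeR adjusted p = 0.401), without overlap, beside 12.4% of all genes lower without overlap. Rxra, the usual partner of PPARs, gave 0.76 (SE 0.34, adjusted p = 0.454). Nr1h3 gave 0.74 (SE 0.31), Nr1h4, the bile acid receptor, 0.74 (SE 0.36), Pparg 0.35 (SE 0.37) and Hnf4a 0.20 (SE 0.24). The 2 catalytic subunits of AMP kinase, the sensor of low energy, differed in direction, each without overlap. Of the 18 upstream energy sensors tested, 1 was higher and 1 lower without overlap, beside 6.85% and 12.4% of all genes. Prkaa1 stood at 41.8, 39.4 and 54.2 CPM in CON and 70.6, 106 and 70.8 CPM in SAP, and Prkaa2 at 66.0, 67.1 and 53.8 CPM in CON and 46.8, 34.0 and 38.8 CPM in SAP. Neither was called, with adjusted p of 0.401 and 0.407.

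The remaining named genes were not called either. Nrip1, a corepressor of these receptors, gave −0.23 (SE 0.17), Ncoa3 −0.38 (SE 0.24), Ncoa2 −0.24 (SE 0.20) and Med1 −0.22 (SE 0.19), and Sirt1 and Esrrb had 0.02 (SE 0.26) and 0.33 (SE 0.92). Atf2 and Mapk14 gave −0.24 (SE 0.19) and 0.32 (SE 0.28). Of the citric acid cycle and carriers, Ckmt1 gave 1.04 (SE 0.37), Dlat −0.68 (SE 0.27), Slc25a4 0.77 (SE 0.48) and Slc25a5 0.84 (SE 0.62). Pink1, a kinase of mitophagy, gave 0.77 (SE 0.52). Dnm1l of mitochondrial fission and Opa1 of fusion gave −0.34 (SE 0.27) and −0.21 (SE 0.18).

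Among the 8 genes whose CON levels over the 15 classes followed Esrrg most closely were Wwox, Fhit, Zdhhc17, Gpatch4, Slc7a1, Cep162 and Gphn, out of 12523 genes compared. Pearson's r of log2 CPM was 0.974 for Wwox, 0.923 for Fhit and from 0.893 to 0.907 for the other genes named. Over the SAP libraries r was 0.829 for Wwox, 0.673 for Fhit and from 0.4001 to 0.789 for the other genes named. All classes of a library share its free RNA and depth, and gene length was not adjusted for. The choice was not stable, since 3 of the 8 genes stayed among the first 8 with Spearman's correlation, 2 with coarser clusters and 3 without integration. Of the members, Tfam had r = 0.528 (place 1785) and Ppargc1b 0.413 (place 2840), and Esrra, Ppargc1a and Ppard had r from −0.251 to −0.167.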

How the data were processed

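Each of 6 rats (3 CON, 3 SAP) gave 1 library of ileal nuclei. The tables deposited by the authors hold whole-number UMI counts made with dnbc4tools, not normalized. The submitters' processing notes name Seurat 4.3.0 and the build mRatBN7.2. The promoter table is of another build, and coordinates were not mixed. Nuclei were filtered as in the study's methods, log-normalized, integrated on 30 principal components with a numpy re-implementation of Harmony and clustered (scanpy 1.11.5, leidenalg 0.10.2, 20 neighbours, resolution 0.8). The 7 genes, the list genes, mitochondrial, defensin, RT1 and Reg3 genes and marker genes the study discusses were left out of the 2000 variable genes. A cluster was named where its markers had a mean log2 ratio to the other nuclei of 0.5 or more, with a lead of 0.8 over the next class, with at least 3 markers detected. Stem and TA were joined where they were closer. Scrublet's own threshold marked 0% of nuclei, so doublets were kept, and leaving out the top 5% of scores was an alternative. Only classes with at least 10 nuclei in every library were tested.

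Counts were summed per library over all nuclei, epithelial nuclei and each class, and tested with edgeR 4.0.16 (R 4.3.3; filterByExpr, TMM, robust quasi-likelihood fit), with DESeq2 1.42.0 as an alternative. Other alternatives were DESeq2 size factors, no filter on low counts, the replicate block, leaving out each library, a depth covariate, a mitochondrial limit of 1%, coarser clusters (resolution 0.4) and no integration. The fitting was tested on simulated data. CPM values are TMM-scaled where a log2 fold change stands beside them. An SE of a log2 fold change is its absolute value divided by the square root of the F statistic of the edgeR test. It therefore carries the test, and none is given for Esrrg. The unit of replication is the rat, so errors include biological and technical spread. The members and lists were chosen with earlier results of these data known, and no adjustment over a list alone or test over a list was made. Genes were named by this rule: the 7 members, any list gene called and up to 4 genes of lowest p per list over epithelial nuclei, 12 further regulators and targets of the pathway, and the 8 genes most correlated with Esrrg over classes. Some genes that the rule names are not reported here. Leading genes of clusters are named for their level. Libraries with the same replicate number correlated in their deviations over all nuclei (r = 0.635, 0.232 and 0.474), over epithelial nuclei (r = 0.624, 0.0832 and 0.351) and over SMC-like nuclei (r = 0.191, 0.0826 and 0.0859), so all 3 pairs passed 0.1 only over all nuclei. The labels give the number and 1 batch for all samples, without saying that it marks a shared day. The Stereo-seq measurements of the study were not used here.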

Additional observations from a re-analysis of the deposited data

How the results depend on the processing

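Over all nuclei the log2 fold change of Esrrg ran from −1.87 to −1.56 when 1 library was left out, and over epithelial nuclei from −2.02 to −1.58. It kept its direction under every other setting tried. The smallest change came with the mitochondrial limit of 1%, −1.51 in both sums. With that limit the change was −0.995 in Paneth-like, −1.38 in enterocyte-like and −1.79 in stem/TA-like nuclei. None of the other 6 genes was called under any setting over all nuclei or epithelial nuclei. Across classes 1 call was made, that of Ppargc1a in SMC-like nuclei, with DESeq2, with every gene of at least 1 count kept and with the replicate block (1 call each, adjusted p = 0.0370 in the block). Leaving out 1 library gave 0 to 1 calls, and the call was made without CON replicate 3 (adjusted p = 0.0359) or SAP replicate 3 (0.0467). Of the settings that made this call, only DESeq2 has the share of all genes called in the class given here (1.63%). The calls under the other settings can therefore not be set beside such a share. The log2 fold change there ran from −2.19 to −1.67 when 1 library was left out. The replicate block changed no other call. List genes called rose from 0 to 4 over all nuclei and from 0 to 6 over epithelial nuclei with DESeq2, which called 1.24% and 1.79% of all genes there. Between compartments 1 member was called when every gene of at least 1 count was kept, Ppargc1a with 0.88 (adjusted p = 0.0162), among 318 of 28135 genes (1.13%). Of the genes most like Esrrg, 3 of 8 stayed with Spearman's correlation, 2 with resolution 0.4 and 3 without integration.

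Leaving out 1 library turned the direction of Ppara over all nuclei (−0.080 to 0.70), of Ppard over all (−0.26 to 0.51) and epithelial nuclei (−0.17 to 0.49), and of Esrrb (−0.11 to 2.00), Polrmt (−0.43 to 0.29), Sirt1 (−0.13 to 0.15) and Hnf4a (−0.0086 to 0.32) over epithelial nuclei. It also turned the difference of Ppara between compartments (−0.039 to 0.35). The cause was not tested. With the T-like background subtracted, a setting chosen after seeing the data, the log2 ratio of SAP to CON was −2.23 for Esrrg in stem/TA-like nuclei (−1.95 with fibroblast-like nuclei as the reference), −1.61 for Tfam in stem/TA-like and −2.57 for Ppargc1a in SMC-like nuclei. The planned adjustment for gene length was not run, since no gene lengths of the files' build were at hand. With 3 rats per group, depth limits the smaller classes most, and Ppargc1a and Tfam did not pass the filter on low counts in 5 and 6 of the 15 classes.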
